A study of Homo sapiens with 10 samples.

Results

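The genes of polyamine synthesis and breakdown were followed by symbol through the 10 gene count files of the series. They were *ODC1*, *AMD1*, *SRM*, *SMS*, *SAT1*, *SMOX*, *OAZ1*, *OAZ2* and *AZIN1*, 9 of the 59386 genes listed. The RNA came from VCaP, a prostate cancer cell line grown from a metastasis, with 2 libraries in each of 5 groups and all cells taken 72 h after transfection. Each targeting siRNA was used at 30 pmol with Lipofectamine RNAiMAX. *SMARCA4*, the ATPase of SWI/SNF chromatin remodelers, was knocked down with siRNA A or siRNA B. *SMARCA1*, an ATPase of the ISWI remodelers, was knocked down with siRNA A or siRNA C. The control cells carried no knockdown, and the identity and dose of what they were transfected with were not given in the sources used here. The series asks how depletion of each remodeler changes the transcriptome of these cells. All libraries came from a single cell line and nothing states that replicates were separate cultures, so p-values measure only the spread between these libraries, which may be technical.

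Polyamines are small cations that bind nucleic acids and are needed for growth. Ornithine decarboxylase (*ODC1*) makes putrescine, S-adenosylmethionine decarboxylase (*AMD1*) makes the aminopropyl donor, and the synthases *SRM* and *SMS* add aminopropyl groups to give spermidine and then spermine. The acetyltransferase *SAT1* and spermine oxidase (*SMOX*) run the pathway backwards, the antizymes *OAZ1* and *OAZ2* send ODC1 protein to the proteasome, and antizyme inhibitor (*AZIN1*) holds antizymes away from it. Prostate epithelium is known for very high polyamine output, and *ODC1* and *SRM* are textbook targets of MYC. Much of the control of ODC1, AMD1 and SAT1 lies in translation and protein turnover, which RNA counts do not measure.

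Libraries held between 23898545 and 34667965 counts, which puts 3 counts at 0.0865 to 0.126 CPM (counts scaled to the library total). In the cells transfected against it, *SMARCA4* was at 7.87% of its control mean (log2 fold change -3.70), and *SMARCA1* was at 8.78% in its own knockdown (log2 fold change -3.51) and at 211% in *SMARCA4* knockdown. The 10 markers of prostate luminal epithelium were all detected and summed to between 8774 and 10570 CPM over all 10 libraries. Of the 7 markers of other cell types, the leukocyte genes *PTPRC*, *CD3E* and *CD68* had at most 2 counts in any library. The endothelial *PECAM1* had 1 to 13 and *VWF* 42 to 82 counts, and the collagens *COL1A2* and *COL1A1* had 0 to 92 and 99 to 581. The 7 summed to 6.57 to 13.2 CPM in the controls, 8.87 to 17.1 CPM in *SMARCA4* knockdown and 10.6 to 20.3 CPM in *SMARCA1* knockdown. None of the 7 was at 0 in all libraries, and their part in the results was not tested. Another feature of the libraries moved with both knockdowns. In all, 13 interferon response genes summed to between 251 and 256 CPM in the controls, but to between 13380 and 34010 CPM after *SMARCA4* depletion and to between 18790 and 35050 CPM after *SMARCA1* depletion. The part of these genes in the results on polyamine metabolism was not tested. In bulk RNA, fewer cells of a kind and less RNA per cell cannot be told apart.

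All 9 genes were expressed and passed the filter on low counts. Levels between genes are comparable only per length, and in the controls the order in TPM (counts scaled by gene length and library, n = 2) was *ODC1* at 1031 ± 74.3 (SD), *AMD1* at 756 ± 73.0, *OAZ1* at 476 ± 10.5, *SMS* at 439 ± 2.35, *SRM* at 373 ± 31.9, *AZIN1* at 183 ± 24.05, *SAT1* at 84.8 ± 12.9, *OAZ2* at 69.8 ± 0.226 and *SMOX* at 10.8 ± 0.688. No neighbours in this order overlapped between the control libraries. The upper part of the order rests on the gene lengths in the count files, which join all annotated exons. With the length of the canonical transcript alone, *AMD1* led at 2250 TPM, followed by *OAZ1* at 1426 and *ODC1* at 1162 TPM, because the *AMD1* length drops from 10193 to 3423 bases and the *OAZ1* length from 3436 to 1148 bases. On either length *SMOX* was the lowest and *SAT1* and *OAZ2* were among the last 4. Each of the 4 synthetic enzymes was thus more abundant as RNA than *SAT1* and *SMOX* in control VCaP cells.

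**Figure D1:**
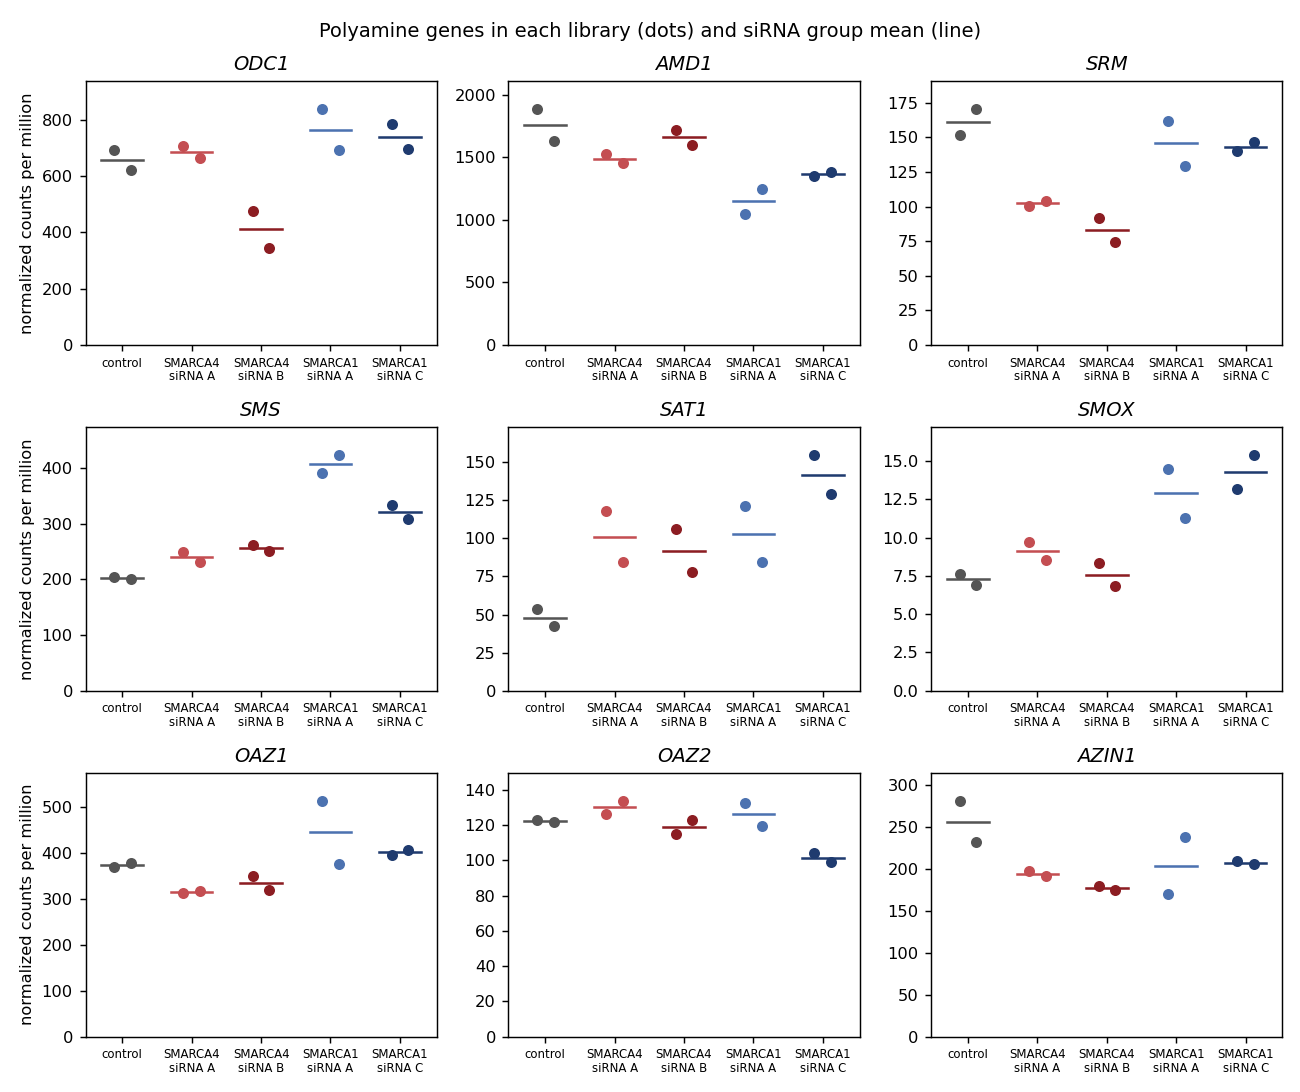
Each panel plots 1 polyamine gene in TMM-normalized CPM (y axis, from 0) for the 5 groups (x axis), with dots for the 2 libraries of a group and a line at their mean. *SAT1* lies above both controls in all 8 knockdown libraries, while *ODC1* falls below them in the libraries of *SMARCA4* siRNA B alone.

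*ODC1* (GRCh38 chromosome 2, 10439968 to 10448327, minus strand) encodes the first enzyme of the pathway. It was at 692 and 621 CPM in the controls. With *SMARCA4* siRNA A it was at 706 and 665 CPM, and with siRNA B at 477 and 345 CPM. The siRNA A libraries thus lay within or above the control range, while both siRNA B libraries lay below it. With *SMARCA1* siRNA A it was at 837 and 693 CPM, and with siRNA C at 786 and 695 CPM. These 4 libraries all lay above the controls, although the lowest of them did so by a narrow margin (693.2 against 692.5 CPM). Over both siRNAs, *ODC1* averaged 549 ± 168 CPM in *SMARCA4* knockdown (SD, n = 4; log2 fold change -0.31, SE 0.14, adjusted p = 0.0968 by edgeR's quasi-likelihood test with Benjamini-Hochberg adjustment over 16899 genes). It averaged 753 ± 71.0 CPM in *SMARCA1* knockdown (n = 4; log2 fold change 0.20, SE 0.14, adjusted p = 0.277, edgeR). Neither comparison with the controls passed the test. Averaged over both siRNAs of each target, *ODC1* was lower with *SMARCA4* depleted than with *SMARCA1* depleted (log2 fold change -0.50, SE 0.11, adjusted p = 0.00789, edgeR). Of the *SMARCA4* siRNA A libraries, the one at 706 CPM lay within the *SMARCA1* range and the one at 665 CPM just below it. Both siRNA B libraries lay much further below. This contrast was not tested for each *SMARCA4* siRNA apart. That verdict against the controls in *SMARCA4* knockdown depended on the fit. The difference passed with no filter on low counts (-0.29, adjusted p = 0.0399). It also passed with a replicate block, which adds the replicate number to the fit (-0.31, adjusted p = 0.03, both edgeR). Without *SMARCA4* siRNA B replicate 1 it was -0.39.

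The 2 *SMARCA4* siRNAs gave different *ODC1* levels. The difference from the controls was 0.06 with siRNA A (adjusted p = 0.799) and -0.68 with siRNA B (adjusted p = 0.00717, both edgeR). Tested directly, siRNA B was lower than siRNA A by a log2 fold change of -0.74 (SE 0.16, 95% interval -1.10 to -0.38, adjusted p = 0.0297, edgeR). *ODC1* was the only member called in this comparison, in which 6.20% of all genes tested were called (3.17% higher and 3.04% lower). With a library left out the difference stayed between -0.97 and -0.53, but the call held in only 3 of the 10 fits. It held without either *SMARCA1* siRNA A library or without *SMARCA4* siRNA B replicate 1. It was lost without *SMARCA4* siRNA B replicate 2 (-0.53, adjusted p = 0.144), *SMARCA4* siRNA A replicate 1 (adjusted p = 0.0607) or replicate 2 (adjusted p = 0.122), either *SMARCA1* siRNA C library (adjusted p = 0.0604 and 0.0616) or either control (adjusted p = 0.0582 and 0.0586, all edgeR). Between the *SMARCA1* siRNAs edgeR called 0 of the 9 genes, with 2 (*SMS* and *OAZ2*) at an unadjusted p under 0.05, and DESeq2 also called 0. In that comparison edgeR called 2 genes of 16899 (0.0118%). Without *SMARCA1* siRNA A replicate 2 it called *OAZ1* (-0.38) and *OAZ2* (-0.41), both lower with siRNA C.

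*ODC1* contains a pair of perfect CACGTG E-boxes, the sequence that MYC-MAX dimers bind. They are shown because *MYC* RNA moved strongly in these libraries. Both lie in the first intron of the canonical transcript, 286 and 320 bases past its start, and fall within the window around another annotated start site. Each line gives 30 bases of the minus strand of GRCh38.p14 from RefSeq with the E-box in capitals.
ODC1 E-box at chr2:10448024-10448053: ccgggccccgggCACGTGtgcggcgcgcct
ODC1 E-box at chr2:10447990-10448019: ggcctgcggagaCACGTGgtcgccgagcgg
The E-box, searched as CACGTG (the same on both strands), was found in 2 of the 10 promoter windows of the members, those of *ODC1* and *SRM*, and in 7.26% of all 35116 windows of the same length (250 bases before to 50 after a start). Windows were at hand for 7 of the 9 genes, and those of *SMOX* and *AZIN1* were not analysed here. A match is a run of letters and not evidence of binding.

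*MYC*, the transcription factor that gives these E-boxes their interest, was at 318 and 328 CPM in the controls. It fell to 87.4 and 102 CPM with *SMARCA4* siRNA A and to 42.2 and 25.8 CPM with siRNA B (log2 fold change -2.51 over both, adjusted p = 4.53e-06, edgeR). In *SMARCA1* knockdown it was between 164 and 188 CPM (log2 fold change -0.89, adjusted p = 0.00147, edgeR). The siRNA A libraries against *SMARCA4* thus had 27.0% and 31.6% of the control *MYC* mean with *ODC1* at 107.5% and 101.3% of its own. The siRNA B libraries had 13.1% and 7.97% of the *MYC* mean with *ODC1* at 72.7% and 52.6%. In CPM, *ODC1* was below both controls only in the 2 libraries with the least *MYC*. It was above both in the 4 libraries with *MYC* at 50.8% to 58.2%, and also in *SMARCA4* siRNA A replicate 1, with *MYC* at 27.0%. In TPM, the *SMARCA1* libraries ran from 1013.5 to 1210.9 and overlapped the controls at 978 and 1083.5. The *MYC* level and the siRNA used cannot be told apart here, and the part of *MYC* was not tested. Over the 10 libraries, Pearson's r of log2 CPM between *ODC1* and *MYC* was 0.78, a description over points that share 5 treatments. *MAX*, the partner of MYC, rose in both knockdowns (1.09 and 1.16), and so did the MAX-binding repressor *MXD4* (0.55 and 0.39), whose calls were lost without control replicate 1 (adjusted p = 0.0526 and 0.156, edgeR). In *SMARCA1* knockdown *MXD4* was also not called without control replicate 2 or *SMARCA1* siRNA C replicate 2 (adjusted p = 0.0517 and 0.0713, edgeR). Its difference there was 0.63 with siRNA A alone (adjusted p = 0.006) and 0.15 with siRNA C alone (adjusted p = 0.391, both edgeR).

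**Figure D2:**
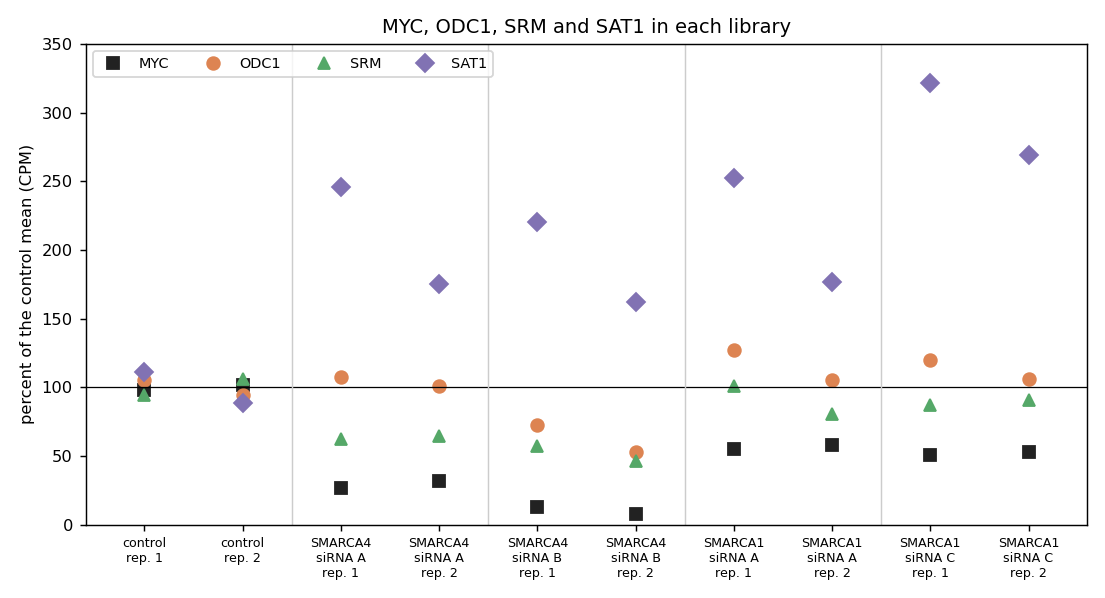
*MYC* (squares), *ODC1* (circles), *SRM* (triangles) and *SAT1* (diamonds) in each of the 10 libraries (x axis), as a percent of the mean CPM of the 2 control libraries (y axis, from 0, line at 100). *MYC* stays between 7.97% and 58.2% in the knockdowns while *ODC1* stays between 52.6% and 127%.

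*SRM* (chromosome 1, 11054584 to 11060020, minus strand), which makes spermidine from putrescine, fell in *SMARCA4* knockdown. The controls held 152 and 170.4 CPM, and the gene was at 100.3 and 104 CPM with *SMARCA4* siRNA A, while siRNA B gave 91.8 and 74.5 CPM. All 4 *SMARCA4* libraries lay below both controls. The mean was 92.7 ± 13.2 CPM (n = 4), 57.5% of the control mean (log2 fold change -0.80, SE 0.12, adjusted p = 0.000484, edgeR). Both siRNAs passed the test when set apart (-0.66 and -0.95). With *SMARCA1* siRNA A *SRM* was at 162 and 129.7 CPM and with siRNA C at 140.1 and 147 CPM, which overlaps the controls (log2 fold change -0.16, 95% interval -0.43 to 0.11, adjusted p = 0.316, edgeR). The direct comparison put *SRM* lower in *SMARCA4* than in *SMARCA1* knockdown (log2 fold change -0.65, SE 0.10, adjusted p = 0.00107, edgeR). With each library left out in turn, its difference in *SMARCA4* knockdown stayed between -0.85 and -0.69 and stayed called. The *SRM* window holds an E-box at -199 relative to its start, on the minus strand of GRCh38.p14 (RefSeq), in capitals.
SRM E-box at chr1:11060200-11060229: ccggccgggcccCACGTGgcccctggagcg

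*SMS* (chromosome X, 21940709 to 21994837, plus strand), which turns spermidine into spermine, moved the other way. It was at 204 and 201 CPM in the controls and at 249.4 and 231 CPM with *SMARCA4* siRNA A, while siRNA B gave 262 and 252 CPM. With *SMARCA1* siRNA A it was at 392 and 423 CPM and with siRNA C at 334 and 309 CPM. All 8 knockdown libraries lay above both controls, and all 4 *SMARCA1* libraries lay above all 4 *SMARCA4* libraries. The rise was to 123% of the control mean in *SMARCA4* knockdown (log2 fold change 0.29, SE 0.09, adjusted p = 0.0234, edgeR) and to 180% in *SMARCA1* knockdown (0.84, SE 0.09, adjusted p = 0.000127, edgeR). The difference between the knockdowns also passed (-0.54, SE 0.07, adjusted p = 0.000519, edgeR). The smaller rise needed both controls and siRNA B. Without control replicate 1 it was 0.34 (adjusted p = 0.0822), without control replicate 2 it was 0.31 (adjusted p = 0.101), and siRNA A alone gave 0.24 (adjusted p = 0.0939, all edgeR).

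The balance between the 2 synthases therefore shifted in both knockdowns, by a fall of *SRM* with a small rise of *SMS* after *SMARCA4* depletion and by a rise of *SMS* after *SMARCA1* depletion. On the TPM scale, the log2 ratio of *SRM* to *SMS* was -0.33 and -0.14 in the controls. It lay between -1.66 and -1.05 in the *SMARCA4* libraries and between -1.61 and -0.98 in the *SMARCA1* libraries. No knockdown library reached the control range. The mean log2 ratio differed from the controls by -1.10 and -0.99.

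*AMD1* (chromosome 6, 110874770 to 110898879, plus strand), which supplies decarboxylated S-adenosylmethionine to both synthases, was lowered in *SMARCA1* knockdown. It was at 1884 and 1633 CPM in the controls and at 1046, 1248, 1354 and 1384.5 CPM in the *SMARCA1* libraries of siRNA A and siRNA C. All 4 lay below both controls, at a mean of 71.6% (log2 fold change -0.49, SE 0.10, adjusted p = 0.0038, edgeR). Without control replicate 1 this became -0.36 (adjusted p = 0.0792, edgeR). With *SMARCA4* siRNA A it was at 1524 and 1451 CPM and with siRNA B at 1721 and 1601 CPM, and the higher siRNA B library lay between the controls (log2 fold change -0.16, 95% interval -0.40 to 0.07, adjusted p = 0.235, edgeR). *AMD1* was the only member called higher in *SMARCA4* than in *SMARCA1* knockdown (0.33, SE 0.09, adjusted p = 0.0154, edgeR). That call was lost without either *SMARCA1* siRNA C library (adjusted p = 0.055 and 0.0501, edgeR).

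*SAT1* (chromosome X, 23783173 to 23786210, plus strand), which acetylates spermidine and spermine for export or oxidation, showed the largest rise among the members in each knockdown. It was at 53.4 and 42.7 CPM in the controls. With *SMARCA4* siRNA A it was at 118 and 84.3 CPM and with siRNA B at 106 and 77.8 CPM. With *SMARCA1* siRNA A it was at 121 and 84.8 CPM and with siRNA C at 155 and 129 CPM. All 8 knockdown libraries lay above both controls. The mean rose to 201% of control in *SMARCA4* knockdown (log2 fold change 1.00, SE 0.21, adjusted p = 0.00313, edgeR) and to 255% in *SMARCA1* knockdown (1.33, SE 0.21, adjusted p = 0.000767, edgeR). Each of the 4 siRNAs passed the test on its own, at 1.07 and 0.93 for *SMARCA4* siRNA A and B and at 1.10 and 1.56 for *SMARCA1* siRNA A and C. The difference between the knockdowns did not pass with all libraries (-0.33, 95% interval -0.68 to 0.03, adjusted p = 0.138, edgeR). That verdict depended on the fit. The difference passed with no filter on low counts (-0.31, adjusted p = 0.0172) and with a replicate block (-0.33, adjusted p = 0.00943, both edgeR). Without *SMARCA1* siRNA A replicate 2 it was -0.44. With a library left out, the rise stayed called, with a range of 0.88 to 1.21 for *SMARCA4* and of 1.19 to 1.53 for *SMARCA1*.

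*SAT1* and *SMS* rose in every knockdown library, and both lie on the X chromosome. Between the *SMARCA1* siRNAs they differed in opposite directions, at -0.34 for *SMS* and 0.46 for *SAT1* with siRNA C against siRNA A, neither called. The 250 bases before each gene are shown because both rose over the controls, read from RefSeq on the plus strand of GRCh38.p14.
SAT1 upstream at chrX:23782923-23783172: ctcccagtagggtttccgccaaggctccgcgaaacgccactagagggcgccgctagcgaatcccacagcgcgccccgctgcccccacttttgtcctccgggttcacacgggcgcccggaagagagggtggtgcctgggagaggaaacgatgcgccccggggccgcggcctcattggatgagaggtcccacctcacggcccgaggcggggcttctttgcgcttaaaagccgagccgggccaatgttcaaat
SMS upstream at chrX:21940459-21940708: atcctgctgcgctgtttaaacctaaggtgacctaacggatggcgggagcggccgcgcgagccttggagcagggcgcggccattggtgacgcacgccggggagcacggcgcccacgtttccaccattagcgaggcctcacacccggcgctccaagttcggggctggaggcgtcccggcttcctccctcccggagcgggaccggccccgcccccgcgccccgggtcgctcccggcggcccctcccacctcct
Both are rich in G and C (66.4% and 72.8%). No E-box, no interferon-stimulated response element (TTTC, any 2 bases, TTTC) and no gamma-activated site (TTCNNNGAA) was found on either strand of these windows, where 3.57% of all windows hold the second motif and 7.66% the third. That says only that these letters are not in this window.

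*SMOX* (chromosome 20, 4120980 to 4187747, plus strand), which oxidizes spermine back to spermidine, rose in *SMARCA1* knockdown from a low level. It was at 7.61 and 6.91 CPM in the controls and at 14.5, 11.3, 13.2 and 15.4 CPM in the *SMARCA1* libraries of siRNA A and siRNA C. These 4 lay above both controls, at a mean of 187% (log2 fold change 0.90, SE 0.16, adjusted p = 0.00132, edgeR). With *SMARCA4* siRNA A it was at 9.71 and 8.52 CPM and with siRNA B at 8.31 and 6.84 CPM, and the lowest of these lay below the controls (0.20, 95% interval -0.15 to 0.54, adjusted p = 0.333, edgeR). The difference between the knockdowns passed (-0.71, SE 0.12, adjusted p = 0.00203, edgeR). Thus *SAT1* rose in both knockdowns, whereas *SMOX* was called in *SMARCA1* knockdown and the 2 knockdowns differed from each other.

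The breakdown enzyme gained on the first synthetic enzyme in all knockdown libraries. The log2 ratio of *SAT1* to *ODC1* on the TPM scale was -3.53 and -3.69 in the controls. After *SMARCA4* depletion it was -2.41 and -2.81 with siRNA A and -2.003 and -1.98 with siRNA B, and in *SMARCA1* knockdown it was -2.62 and -2.86 with siRNA A and -2.18 and -2.26 with siRNA C. All 8 lay above the controls, by 1.31 and 1.13 on average. In *SMARCA4* siRNA A and in *SMARCA1* knockdown, where *ODC1* was not lower than in the controls, the shift went with *SAT1* alone.

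Antizymes bind ODC1 protein, and the antizyme inhibitor binds antizymes. *OAZ1* (chromosome 19, 2269509 to 2273490, plus strand), the main antizyme, was at 369 and 378 CPM in the controls and at 313 and 318 CPM with *SMARCA4* siRNA A, while siRNA B gave 351 and 319.8 CPM. All 4 *SMARCA4* libraries were below the controls, yet the difference did not pass (log2 fold change -0.20, 95% interval -0.47 to 0.07, adjusted p = 0.202, edgeR). It passed without *SMARCA1* siRNA A replicate 1, which enters the shared estimate of the spread (adjusted p = 0.0361). In *SMARCA1* knockdown it was at 514, 377, 396 and 407 CPM (0.18, 95% interval -0.09 to 0.45, adjusted p = 0.252, edgeR). Here 1 library decided the call, since without siRNA A replicate 2, the library inside the control range, the difference was 0.31 (adjusted p = 0.00527, edgeR). *OAZ1* was lower with *SMARCA4* depleted than with *SMARCA1* depleted (-0.38, SE 0.10, adjusted p = 0.0147, edgeR), a call lost without *SMARCA1* siRNA C replicate 1, siRNA C replicate 2 or *SMARCA4* siRNA B replicate 2 (adjusted p = 0.0525, 0.0585 and 0.0663).

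Among the 7 members whose windows were searched, only that of *OAZ1* held letters of the interferon-stimulated response element. *SMOX* and *AZIN1* were not searched. The site is shown because interferon response genes rose in the same libraries. Overlapping copies of TTTC, any 2 bases and TTTC, in capitals, start at -160 relative to the canonical start on the plus strand of GRCh38.p14 (RefSeq).
OAZ1 upstream at chr19:2269353-2269382: ctcttccTTTCCCTTTCCCTTTCaccaatc
*OAZ1* was not called in either comparison with the controls, as given above, and the match is a description only.

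*OAZ2* (chromosome 15, 64687573 to 64703281, minus strand), the second antizyme, had the smallest fitted differences from the controls among the members. It was at 123 and 122 CPM in the controls, at 126, 134, 115 and 123 CPM in *SMARCA4* knockdown and at 133, 119, 104 and 98.8 CPM in *SMARCA1* knockdown. The groups overlapped in both comparisons. Its difference was 0.03 in *SMARCA4* knockdown (95% interval -0.18 to 0.23, adjusted p = 0.844) and -0.11 in *SMARCA1* knockdown (95% interval -0.31 to 0.09, adjusted p = 0.334, both edgeR). Without *SMARCA1* siRNA A replicate 1, the comparison of the knockdowns passed (adjusted p = 0.0449, edgeR), against 0.14 (adjusted p = 0.175) with all libraries.

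*AZIN1* (chromosome 8, 102826111 to 102893864, minus strand), the antizyme inhibitor that spares ODC1 protein, was lower in *SMARCA4* knockdown. The controls held 281 and 231 CPM, and the gene was at 197 and 191 CPM with *SMARCA4* siRNA A, while siRNA B gave 179.7 and 174 CPM. All 4 lay below both controls, at a mean of 72.5% (log2 fold change -0.47, SE 0.13, adjusted p = 0.0163, edgeR). The higher control carries much of this call: without control replicate 1 the difference was -0.28 (adjusted p = 0.247). It also missed the threshold without either *SMARCA4* siRNA B library (adjusted p = 0.0506 each, edgeR). In *SMARCA1* knockdown *AZIN1* was at 169, 238, 209 and 205 CPM, with 1 library between the controls (-0.32, 95% interval -0.62 to -0.02, adjusted p = 0.0734, edgeR). Without that library, siRNA A replicate 2, it was -0.42 (adjusted p = 0.00306, edgeR). The 2 knockdowns did not differ by the test (-0.15, 95% interval -0.39 to 0.10, adjusted p = 0.321, edgeR), except without *SMARCA1* siRNA A replicate 1 (-0.25, adjusted p = 0.0285, edgeR).

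**Figure D3:**
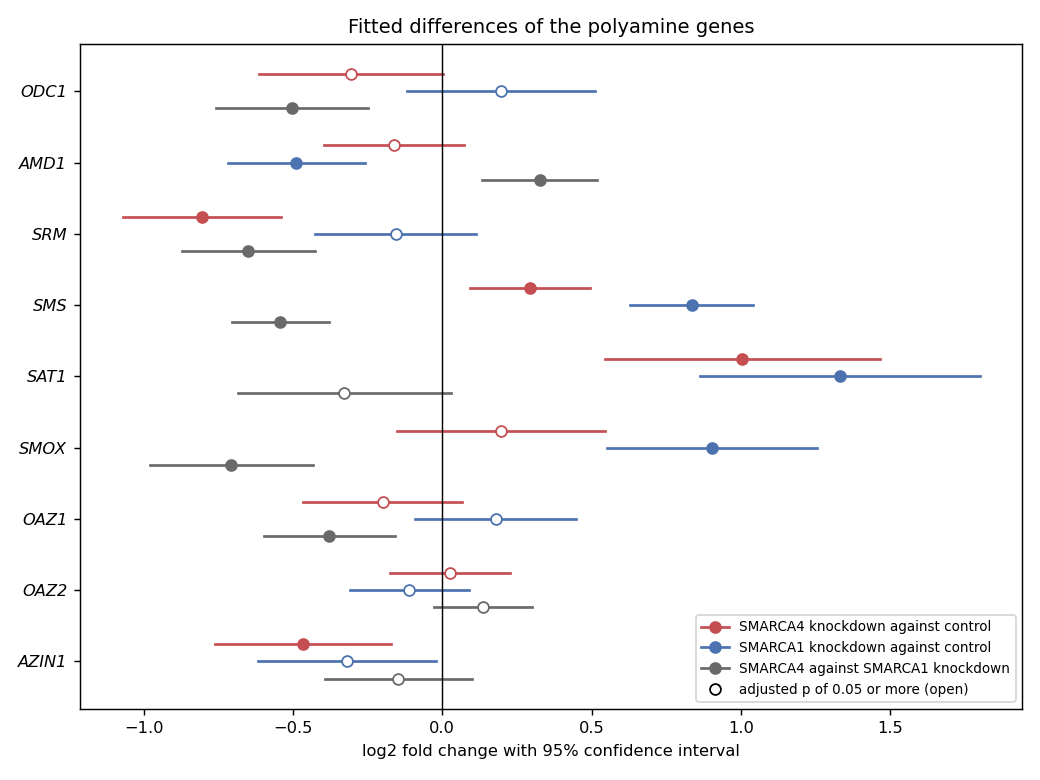
Fitted log2 fold change of the 9 polyamine genes (x axis) with its 95% confidence interval (bars) for *SMARCA4* knockdown against control, *SMARCA1* knockdown against control and *SMARCA4* against *SMARCA1* knockdown, with filled circles for an adjusted p under 0.05 by edgeR. *SAT1* and *SMS* lie above 0 against the controls in both knockdowns, and *SRM* lies below 0 in *SMARCA4* knockdown (-0.80).

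Over the 9 genes, edgeR called 2 higher (*SMS*, *SAT1*) and 2 lower (*SRM*, *AZIN1*) in *SMARCA4* knockdown, with 5 not called, where 45.1% of all genes tested were called (22.8% higher and 22.3% lower). Without control replicate 1, 2 members were called in this comparison. In *SMARCA1* knockdown 3 were higher (*SMS*, *SAT1*, *SMOX*) and 1 was lower (*AMD1*), with 5 not called, against 46.8% of all genes (23.8% higher and 23.0% lower). The share of members called was thus close to that of all genes in both comparisons, which share their control libraries. Taken by siRNA, *SMARCA4* siRNA A had 1 member higher (*SAT1*) and 1 lower (*SRM*), where 33.2% of all genes were called (17.4% higher and 15.8% lower), and siRNA B had 2 higher (*SMS*, *SAT1*) and 3 lower (*ODC1*, *SRM*, *AZIN1*), where 45.0% were (23.0% and 21.9%). Each *SMARCA1* siRNA had 3 higher (*SMS*, *SAT1*, *SMOX*) and 1 lower (*AMD1*), where 34.8% of all genes were called with siRNA A (18.5% higher and 16.3% lower) and 45.3% with siRNA C (23.8% and 21.5%). The median log2 fold change of the members over both siRNAs was -0.16 and 0.18, beside 0.0022 and -0.0035 over all genes. Between the knockdowns 5 were lower in *SMARCA4* knockdown (*ODC1*, *SRM*, *SMS*, *SMOX*, *OAZ1*) and 1 was higher (*AMD1*), where 35.4% of all genes were called (19.1% lower and 16.3% higher). For *ODC1* this call averages *SMARCA4* siRNAs that gave different levels, with siRNA B far lower. *SRM*, *SMS*, *SMOX* and *AMD1* each passed both a comparison with the controls and the direct comparison of the knockdowns. Of these, *SMS* was called higher in both knockdowns and differed in the size of its rise, whereas *SRM*, *SMOX* and *AMD1* were called against the controls in 1 knockdown each.

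The genes around the pathway were counted from a list of 29, of which 27 passed the filter. *PAOX* and *SATL1*, relatives of the breakdown enzymes, did not, with at most 5 and 2 counts in a library. In *SMARCA4* knockdown 5 of the 27 were higher, 9 were lower and 13 were not called, with a median log2 fold change of -0.08, where 22.8% of all genes tested were called higher and 22.3% lower. In *SMARCA1* knockdown 8 were higher, 13 were lower and 6 were not called, with a median of -0.25, where 23.8% of all genes were called higher and 23.0% lower. These shares are also the background of the shorter lists that follow, where counts are over both siRNAs of a target. By siRNA, 2 were higher and 9 lower with *SMARCA4* siRNA A, where 17.4% and 15.8% of all genes were. With *SMARCA4* siRNA B 6 were higher and 10 lower (23.0% and 21.9% of all genes). With *SMARCA1* siRNA A 7 were higher and 7 lower (18.5% and 16.3% of all genes). With *SMARCA1* siRNA C 7 were higher and 12 lower (23.8% and 21.5% of all genes). For counts with a single siRNA, the shares of that siRNA are the background. The methionine salvage list covers recycling of the methylthioadenosine left by both synthases, together with the amino acid oxidase *IL4I1*. It had 4 of 6 genes lower and 1 higher (*IL4I1*) in *SMARCA4* knockdown. In *SMARCA1* knockdown 5 of 6 were lower and 1 was higher (*IL4I1*). With *SMARCA1* siRNA A alone 1 of the 6 was called lower, and with siRNA C alone 5 were. With *SMARCA4* siRNA A alone 3 were called lower, and with siRNA B alone 4 were. The genes lower in both, named here after their values were seen, were *MTAP*, which cleaves methylthioadenosine (log2 fold change -0.87 and -0.52), *APIP* (-0.30 and -0.46), *ENOPH1* (-0.69 and -0.43) and *ADI1* (-0.85 and -0.55). Of these, *APIP* lost its call in *SMARCA4* knockdown without any 1 of the *SMARCA4*, *SMARCA1* siRNA C or control libraries (adjusted p from 0.0576 to 0.269, edgeR) and with siRNA A alone (0.0050), and its call in *SMARCA1* knockdown without control replicate 1 (adjusted p = 0.0668, edgeR). *ADI1* was not called in *SMARCA1* knockdown without control replicate 2 (adjusted p = 0.0545, edgeR). With *SMARCA1* siRNA A alone *MTAP* was -0.32 (adjusted p = 0.0574), *APIP* -0.32 (adjusted p = 0.0562), *ADI1* -0.29 (adjusted p = 0.0961) and *MRI1*, the fifth gene lower in that knockdown, -0.34 (adjusted p = 0.093, all edgeR), and *ENOPH1* kept its call (-0.41, adjusted p = 0.0137, edgeR). The gene called higher was *IL4I1*, a secreted L-amino acid oxidase best known from immune cells, which acts on amino acids and not on methylthioadenosine. It rose most of all listed genes in both knockdowns (2.997, SE 0.52, adjusted p = 0.00122, and 3.70, SE 0.51, adjusted p = 0.00037, edgeR). Its counts were 5 and 12 in the controls, 66, 23, 185 and 112 in *SMARCA4* knockdown and 78, 59, 250 and 222 in *SMARCA1* knockdown.

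Of the 2 antizyme relatives, *AZIN2*, the second antizyme inhibitor, rose in both knockdowns (2.31, SE 0.36, adjusted p = 0.000674 in *SMARCA4* knockdown, edgeR, and 2.47 in *SMARCA1* knockdown). Its counts were 12 and 17 in the controls and from 45 to 133 in the knockdown libraries, so the inhibitor with few counts rose where *AZIN1* was lower or not called. The antizyme *OAZ3* was called higher in *SMARCA1* knockdown (0.42, adjusted p = 0.0229), although not with siRNA C alone (0.26, adjusted p = 0.176, both edgeR). In *SMARCA4* knockdown *OAZ3* was -0.16 and not called. Of the 5 transport genes, 2 were higher and 1 lower in *SMARCA4* knockdown and 3 were higher and 1 lower in *SMARCA1* knockdown. Both higher genes in *SMARCA4* knockdown, *SLC18B1* and *SLC3A2*, missed the threshold with siRNA A alone (adjusted p = 0.0614 and 0.0533, edgeR). *SLC18B1*, a vesicular polyamine transporter, rose from 99 and 113 counts in the controls to a range of 152 to 577 in *SMARCA4* knockdown (1.35, SE 0.24, adjusted p = 0.00146, edgeR) and of 345 to 789 in *SMARCA1* knockdown (2.096). Its rise in *SMARCA4* knockdown was 0.73 with siRNA A alone, against 1.97 with siRNA B alone (adjusted p = 0.000296, edgeR). *ATP13A3*, a polyamine-transporting P-type ATPase, was lower in both (-1.13 and -1.23), although not called in *SMARCA4* knockdown without control replicate 1 (-0.94, adjusted p = 0.0675, edgeR). *ATP13A4*, of the same family, was called in *SMARCA1* knockdown (3.31, SE 0.89, adjusted p = 0.0119, edgeR), but on 75 counts over 4 libraries against 3 in the controls, a ratio of 10.9 with an exact 95% counting interval from 3.58 to 53.9. The call was lost without either control (adjusted p = 0.0624 and 0.103, edgeR).

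Of the 5 ornithine supply genes, 2 were lower and 3 not called in *SMARCA4* knockdown, and 1 was higher and 4 were lower in *SMARCA1* knockdown. Among these lower genes, *AGMAT* missed the threshold with siRNA A alone (-0.20, adjusted p = 0.378, edgeR). *OAT* missed it with siRNA C alone (-0.32, adjusted p = 0.176) and *ALDH18A1* with no filter on low counts (-0.30, adjusted p = 0.0577, both edgeR). The gene that rose was *ARG1*, the liver-type arginase (3.09, SE 0.61, adjusted p = 0.00264, edgeR), with 82 counts against 4 in the controls, a ratio of 8.91 with a counting interval from 3.35 to 33.5. The mitochondrial arginase *ARG2* was -1.30 in *SMARCA1* knockdown and was not called in *SMARCA4* knockdown (0.32), where it passed without *SMARCA4* siRNA A replicate 1 or siRNA B replicate 1 (adjusted p = 0.0417 and 0.0394) or with no filter (adjusted p = 0.0406, all edgeR), and the difference between the knockdowns was 1.62. The 4 methionine cycle genes split, with 1 higher and 1 lower in *SMARCA4* knockdown and 1 higher and 2 lower in *SMARCA1* knockdown. The higher gene of each, *MAT1A* and *MAT2B*, missed the threshold with siRNA A of that target alone (adjusted p = 0.126 and 0.136, edgeR). *AHCY*, which clears S-adenosylhomocysteine, was lower in both (-1.12 and -0.72). *EIF5A*, the translation factor that carries the spermidine-derived residue hypusine, was lower in *SMARCA4* knockdown (-0.66) and was 0.00 and not called in *SMARCA1* knockdown. It was the only gene called in *SMARCA4* knockdown among the 4 of hypusination. In *SMARCA1* knockdown *EIF5A2* was called lower (-0.88, adjusted p = 0.0197), although not with siRNA A alone (-0.47, adjusted p = 0.26, both edgeR).

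**Figure D4:**
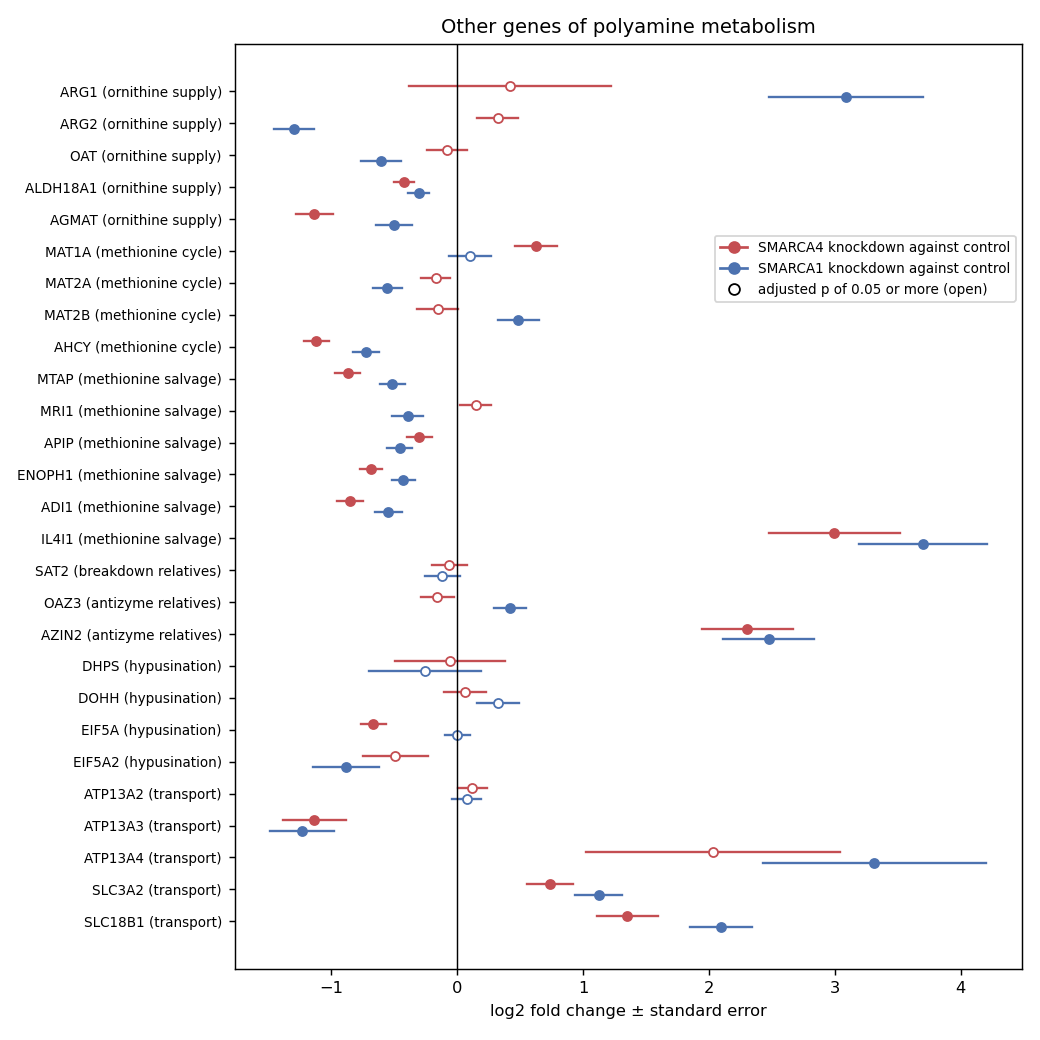
Fitted log2 fold change (x axis) with its standard error (bars) of the 27 other genes of polyamine metabolism that passed the filter, for *SMARCA4* and *SMARCA1* knockdown against control, with filled circles for an adjusted p under 0.05 by edgeR. *IL4I1* lies at 2.997 and 3.70 and *AZIN2* at 2.31 and 2.47, while *MTAP*, *APIP*, *ENOPH1* and *ADI1* lie below 0 in both knockdowns.

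The genes whose log2 CPM followed *ODC1* most closely over the 10 libraries, among 9480 with at least 10 CPM on average, were *BCAS2* and *GEMIN7* (Pearson's r of 0.958 each), *DNTTIP2* (0.946), *POLR1C* and *SPG21* (0.94 each). Those nearest to *SAT1* were *C4orf19* (0.982), *EPHB6* (0.975), *MICAL1* (0.973), *DENND3* and *SNW1* (0.972 each). Among the members, *SRM* was nearest to *ODC1* (0.766) and *SMOX* to *SAT1* (0.778), while *ODC1* and *SAT1* had an r of 0.279 with each other. These values describe libraries that share treatments.

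Few counts were assigned to the loci that share exon bases with the members or to their annotated pseudogenes. Reads of such loci that were placed on a member would not show in these counts. On the same strand, *SAT1* shares 90 exon bases with *RP13-314C10.6* and *OAZ1* 220 with *LLfos-48D6.2*, both with 0 counts in all libraries. *OAZ1* shares 236 exon bases with *JSRP1* on the opposite strand, which had 8 to 57 counts beside 8824 to 14208 for *OAZ1*. *OAZ2* shares 554 bases with *AC100830.4* on the opposite strand, which had 3 to 18 counts. The 9 annotated pseudogenes of *AMD1*, *SRM*, *SMS* and *OAZ1*, found by symbol alone, had at most 2 counts in any library.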

How the data were processed

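RNA-seq of 10 libraries from VCaP cells was analysed, with groups taken from the sample labels. Per the labels and the study's methods, libraries were poly(A)-selected and strand-specific (NEB Ultra II Directional), and reads were aligned to hg38 with HISAT2 2.1.0 and counted per gene by the authors with featureCounts 1.5.2 on GENCODE models. The annotation release was not given in the sources used here. The deposited values are raw counts per gene, with gene lengths, of 23898545 to 34667965 per library. Lengths of canonical transcripts and the place of motif sites in them came from a GENCODE annotation of the same build. Exon bases shared between genes came from the exon positions in the count files, and sequences from RefSeq promoter tables (GRCh38.p14). The members, the pathway list, the marker lists and the motifs were chosen with earlier results of these data known.

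From the counts, genes passing edgeR's filterByExpr (minimum count 10, minimum total 15; 16899 of 59386) were fitted with TMM factors over all 5 groups (edgeR 4.0.16, limma 3.58.1, R 4.3.3) and tested with glmQLFTest, averaging the 2 siRNAs of a target. An adjusted p under 0.05 was a call. CPM are TMM-normalized. TPM were computed from counts and the lengths in the files, unfiltered. Fold changes of genes with few counts depend on the prior count. Intervals of ratios cover counting error only. No replicate pair held identical values. The 2 replicates of a group differed by unequal amounts, measured as chi-square per gene against counting error. It was 60.6 for *SMARCA1* siRNA A, 42.9 for *SMARCA4* siRNA A and 22.6 for *SMARCA4* siRNA B. For the controls it was 6.39 and for *SMARCA1* siRNA C 3.80. The fit gives all groups a shared estimate of the spread for each gene, and the effect of this on the calls was not tested. The test was checked on simulated data: of 195 genes changed by a log2 of 1.5 in simulated *SMARCA4* knockdown libraries, 84.1% were recovered among 16511 genes. Of the 173 genes called there, 9 were unchanged. The largest change of a member in *SMARCA4* knockdown was 1.00, and 45.1% of all genes were called in the data. The check therefore does not cover changes as small as those of the members, or changes in so many genes.

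Named were all 9 members, the 3 pathway genes with the largest absolute change among those called in each knockdown, *MYC*, *MAX*, *MXD4*, the targeted genes and the 5 genes most correlated with *ODC1* and *SAT1*, and other pathway genes were named after their values were seen. One gene of the rule is not reported here. Alternatives were RLE, upper quartile or no scaling factors, no filter or at least 1 CPM in 2 libraries, DESeq2 1.42.0, a replicate block, fits on fewer groups, single siRNAs, each library left out, FPKM in place of TPM and, chosen after seeing the data, canonical transcript lengths and the same fits for the siRNA contrasts and the other named genes.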

Additional observations from a re-analysis of the deposited data

Results flagged for a closer look

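Differences between siRNAs of 1 target passed the direct test for 9 of the genes examined, all between *SMARCA4* siRNA B and siRNA A. Of the 9 members 1 was called lower there, and of the 27 other pathway genes 4 were called higher and 2 lower. Among all genes tested, 3.17% were called higher and 3.04% lower in that comparison. Between the *SMARCA1* siRNAs only 2 genes of 16899 (0.0118%) were called. *ODC1* was lower with siRNA B by a log2 fold change of -0.74 (adjusted p = 0.0297, edgeR), lower in 2 of 2 libraries. *MYC* was also lower (-1.48, adjusted p = 0.00551, edgeR), in 2 of 2 libraries. *SMARCA4* itself was lower with siRNA B (-0.60, adjusted p = 0.0485, edgeR), so the siRNAs differed in the residual level of their target. *IL4I1* (1.69, adjusted p = 0.0423) and *SLC18B1* (1.23, adjusted p = 0.0234, both edgeR) were higher with siRNA B. Among the methionine genes, *MAT2B* (1.46, adjusted p = 0.00551) and *ADI1* (0.64, adjusted p = 0.0206) were higher and *APIP* (-0.61, adjusted p = 0.0194, all edgeR) was lower. The antizyme *OAZ3* was lower as well (-0.60, adjusted p = 0.044, edgeR). With a library left out, the call held in 10 of 10 fits for *MYC* (-1.86 to -1.18) and *MAT2B* (1.20 to 1.79). It held in 3 of 10 for *ODC1*, *SMARCA4*, *OAZ3* (-0.73 to -0.44) and *IL4I1* (1.07 to 2.73), in 4 of 10 for *SLC18B1* (0.84 to 1.77) and *ADI1* (0.51 to 0.76), and in 5 of 10 for *APIP* (-0.68 to -0.54). None of the 9 polyamine genes had a library standing apart from the other 3 of its knockdown by Dixon's test on log2 CPM (18 groups of 4 examined).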

How the results depend on the processing

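In no comparison did a polyamine gene pass in opposite directions, but *ODC1* in *SMARCA4* knockdown was 0.06 with siRNA A alone (adjusted p = 0.799) and -0.68 with siRNA B alone (adjusted p = 0.00717, edgeR), and *OAZ1* between the *SMARCA1* siRNAs ran from -0.38 to 0.07 with a library left out. With all libraries, 7616 genes and 4 members were called in *SMARCA4* knockdown, 7911 and 4 in *SMARCA1* knockdown, 5982 and 6 between the knockdowns, 1048 and 1 between the *SMARCA4* siRNAs and 2 and 0 between the *SMARCA1* siRNAs. With each library left out in turn, these became 4413 to 9183 genes and 2 to 5 members, 4430 to 9557 and 3 to 6, 3683 to 8072 and 4 to 8, 48 to 2907 and 0 to 1, and 0 to 1927 and 0 to 2. The lowest counts against the controls came without control replicate 1. The members called in *SMARCA4* knockdown were 2 with siRNA A alone and 5 with siRNA B alone. Between the *SMARCA4* siRNAs, 2352 genes were called with no filter, 1759 with *SMARCA4* and control libraries alone, and 453 genes and 0 members with the knockdown libraries alone. Between the *SMARCA1* siRNAs the same 3 fits called 1276, 331 and 0 genes, DESeq2 called 494 and the replicate block 16. Of 90 values of members with a library left out, 83 kept their side of the threshold in *SMARCA4* knockdown, 87 in *SMARCA1* knockdown and 82 between the knockdowns, and under the other alternatives 85 of 90, 87 of 90 and 70 of 72 did. For the other genes, 314, 303 and 306 of 330 did with a library left out. *ODC1* passed in *SMARCA4* knockdown with no filter (adjusted p = 0.0399, edgeR), *AZIN1* passed in *SMARCA1* knockdown with library totals, upper quartile factors or no filter (0.0477, 0.0362 and 0.0337), and *SAT1* passed between the knockdowns with no filter (0.0172). In *SMARCA4* knockdown *APIP* was 0.0050 with siRNA A alone and *MAT2B* was 0.58 with siRNA B alone, both against a negative value over both siRNAs. The causes were not tested. FPKM kept the order of the members by level, from 2.46 for *SMOX* to 235 for *ODC1*. The main fit did not treat the replicate numbers as pairs. The correlation of deviations ran from -0.103 to 0.362 over 10 pairs of groups. It was above 0.1 in 3, those among both *SMARCA4* siRNAs and *SMARCA1* siRNA A. For *ODC1* and *SAT1*, replicate 1 was higher in CPM than replicate 2 in every group. Whether the replicates of different groups belong together was not given. With a replicate block, 7788, 8011 and 6247 genes and 5, 4 and 7 members were called in the first 3 comparisons, the additional members being *ODC1* in *SMARCA4* knockdown (-0.31, adjusted p = 0.03) and *SAT1* between the knockdowns (-0.33, adjusted p = 0.00943, edgeR). DESeq2 called 4, 4 and 6 members. With 2 controls, every comparison with them rests on a spread estimated over all 5 groups.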
